A study of Mus musculus with 3 samples.

Results

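The 10 genes described here are the MHC class I genes and their immediate machinery in a single-cell study of mouse brain and blood: the classical heavy chains H2-K1 and H2-D1, the non-classical heavy chains H2-Q4, H2-Q6, H2-Q7, H2-T22 and H2-T23, the shared light chain B2m, the peptide transporter subunit Tap1 and the transactivator Nlrc5. They were chosen by gene identity, and all 10 are among the 15904 genes present in all 3 deposited expression tables. Tap1 and Nlrc5 are not class I molecules themselves. The study hashed 8 samples from female mice of 2 to 3 months on a C57Bl/6 background and sequenced them as 1 library with 10x 3' chemistry and 35 surface antibodies. The genotypes named for the series are Cx3cr1+/-, Cx3cr1-/-, CCR2+/- and CCR2-/-. Naive brain, from mice without tumours, held 2 hashed samples of CCR2+/- and 2 of CCR2-/-, each from 1 hemisphere after PBS perfusion and enrichment of immune cells on percoll. Blood was taken by cardiac puncture and its red cells were lysed, with 1 hashed sample for each of 4 groups: Het or Hom, without tumours (naive) or with metastases. The mice with metastases had received E0771 cells, a mouse mammary carcinoma line, through the carotid artery about 2 weeks earlier. The blood tables write Het and Hom without naming the gene. In the blood monocyte clusters Cx3cr1 was at 3.18 corrected counts per 10000 in naive Het against 0.426 in naive Hom and at 2.20 against 0.277 in the metastasis-bearing pair, while Ccr2 was at 12.2 against 12.6 and at 17.7 against 15.7. The brain controls are heterozygous for CCR2, and no wild-type sample was analysed here.

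MHC class I molecules carry peptides from inside the cell to its surface, where CD8 T cells read those held by H2-K and H2-D. A heavy chain is stable at the surface only when paired with B2m, and most of its peptides are cut by the proteasome and pumped into the endoplasmic reticulum by the transporter made of Tap1 and Tap2. Interferons raise these genes together, partly through interferon response elements in their promoters and partly through Nlrc5. In the resting brain class I is known to be low in most parenchymal cells and higher in endothelium and immune cells.

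8 of the members lie on mouse chromosome 17, within the MHC. In GRCm38.p6 they run from H2-K1 (chr17:33996012-34000619) and Tap1 (chr17:34187556-34197225) through H2-D1 (chr17:35263094-35267497), H2-Q4 (chr17:35379617-35384674), H2-Q6 (chr17:35424850-35430055) and H2-Q7 (chr17:35439140-35443773) to H2-T23 (chr17:36029977-36032701) and H2-T22 (chr17:36037128-36042742). B2m lies apart at chr2:122147687-122153082, and Nlrc5 at chr8:94434335-94527272. RefSeq promoter entries were matched for 9 of the 10. The 250 bases before the annotated start are shown for 5 genes that between them carry each kind of promoter the results turn on: a classical heavy chain, a pair of Q-region heavy chains, the light chain and the transporter. The windows are H2-D1 at chr17:35262844-35263093, H2-Q4 at chr17:35379367-35379616, H2-Q6 at chr17:35424600-35424849, B2m at chr2:122147437-122147686 and Tap1 at chr17:34187306-34187555, all on the plus strand. Capitals mark matches to the motifs named in the next paragraph.
H2-D1: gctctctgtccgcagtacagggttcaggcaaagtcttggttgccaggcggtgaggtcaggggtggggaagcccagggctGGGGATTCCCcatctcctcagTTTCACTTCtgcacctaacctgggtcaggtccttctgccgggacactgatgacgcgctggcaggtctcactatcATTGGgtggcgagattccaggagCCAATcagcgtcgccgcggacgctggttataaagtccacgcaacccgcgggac
H2-Q4: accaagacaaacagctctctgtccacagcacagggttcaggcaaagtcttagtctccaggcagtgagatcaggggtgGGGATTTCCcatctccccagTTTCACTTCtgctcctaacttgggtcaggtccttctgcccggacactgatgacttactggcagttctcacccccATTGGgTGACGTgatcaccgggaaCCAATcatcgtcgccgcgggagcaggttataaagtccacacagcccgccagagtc
H2-Q6: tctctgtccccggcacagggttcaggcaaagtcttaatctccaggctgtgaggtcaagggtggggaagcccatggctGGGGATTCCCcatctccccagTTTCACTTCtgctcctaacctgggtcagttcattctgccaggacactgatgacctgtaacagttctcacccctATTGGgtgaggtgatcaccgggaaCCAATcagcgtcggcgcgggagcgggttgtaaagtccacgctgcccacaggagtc
B2m: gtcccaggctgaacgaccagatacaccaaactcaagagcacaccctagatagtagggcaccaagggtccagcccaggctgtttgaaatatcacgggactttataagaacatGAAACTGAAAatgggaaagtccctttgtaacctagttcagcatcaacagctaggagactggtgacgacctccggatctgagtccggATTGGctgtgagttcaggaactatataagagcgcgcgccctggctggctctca
Tap1: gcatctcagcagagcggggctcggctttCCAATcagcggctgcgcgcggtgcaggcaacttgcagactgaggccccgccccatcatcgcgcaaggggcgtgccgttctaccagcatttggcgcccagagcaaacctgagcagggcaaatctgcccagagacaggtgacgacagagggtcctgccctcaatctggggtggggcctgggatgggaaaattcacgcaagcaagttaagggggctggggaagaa

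The motifs were searched on both strands, and a match says only that the letters are present. The Y box core CCAAT was in the windows of 9 of 9 members and in 33.8% of all 32851 promoter windows of the same length. The full interferon response element core, with 3 A bases in its first block, was in 3 members, B2m, H2-T22 and H2-T23, and in 2.98% of all windows. A shorter form, GAANNGAAA, which has 1 A fewer and was added after the sequences had been read, was in 5 members, H2-D1, H2-K1, H2-Q4, H2-Q6 and H2-Q7, and in 6.31% of windows. In these 5 the match was the same stretch, TTTCACTTC. It lay 150 to 142 bases before the start of H2-D1, 153 to 145 before H2-Q4, 152 to 144 before H2-Q6 and 113 to 105 before the start of the H2-Q7 promoter entry. The starts of the H2-Q7 and H2-K1 entries lie inside the gene spans given above, so the H2-Q7 positions do not count from the start of that span. The palindromic NF-kB site, also added after reading the sequences, was in 4 members, H2-D1, H2-K1, H2-Q6 and H2-Q7, and in 0.0852% of windows, and H2-Q4 held the NF-kB form GGGANTTCC, found in 1.43%. The X2 box core TGACGT was in H2-Q4, H2-Q7 and H2-T22 and in 6.47% of windows. The STAT form TTCNNNGAA was in none of the 9, against 7.02% of windows, and the Tap1 window held a Y box alone. The H2-Q6 and H2-Q7 windows were identical at 205 of 211 aligned positions (97.2%) and those of H2-K1 and H2-D1 at 177 of 204 (86.8%). H2-Q6 and H2-Q7 are known as near-identical genes, so how reads were divided between them is uncertain, and neither is used against the other below. A difference given for 1 of the pair alone carries this limit. A count of members that holds both may count the same change in each.

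Values are corrected counts, which the authors derived from the reads with a model that moves each cell towards a common depth, summed over the cells of a hashed sample and given per 10000. Of 16328 deposited cells, 11063 were used, those whose barcode stands in 1 table and whose hashtag counts came at least 0.5 from the table's own samples. The authors' hashtag classification calls all 16328 singlets within their table, and no doublet caller was run here, so doublets of cells with the same hashtag remain. The tables shared many barcodes: 845 between both blood tables, 926 between brain and naive blood, and 970 between brain and metastasis-bearing blood. The 8 samples held 675 to 2074 such cells, a median of 3929 to 7394 UMIs per cell and 4420428 to 9267629 corrected counts. Ccr2 in brain cluster 3 was at 2.66 and 3.16 in the CCR2+/- samples and at 0.290 and 0.470 in the CCR2-/- samples. Nothing in the labels says whether hashed samples of a genotype are separate animals, so p-values measure the spread between these samples. Cells are grouped by the authors' clusters, named here from marker genes. Although the brain cells are labelled as immune cells, clusters 6, 7 and 8 were led by endothelial (Flt1, Cldn5), smooth muscle (Acta2, Myh11) and choroid plexus (Ttr, Folr1) genes.

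Across naive brain, H2-K1 RNA was highest in lymphocyte cluster 4 and a low-RNA cluster, lower in endothelial-like and MHC class II-high myeloid cells, lower again in microglia-like cells, and near 0 in smooth-muscle-like and choroid-plexus-like cells. For H2-K1, the mean of the 4 samples was 30.2 ± 3.06 (SD, n = 4) in cluster 4, whose cells are led by Gzma, Xcl1 and Nkg7 together with 4 haemoglobin genes, and 26.9 ± 2.71 in the low-RNA cluster 0, which has a median of 1563 UMIs and is led by mitochondrial genes. Endothelial-like cluster 6 followed at 18.6 ± 9.16, cluster 3 (led by H2-Eb1, H2-Ab1 and Cd74, with Mrc1 and Cd209a) at 16.1 ± 4.56, and microglia-like cluster 1 at 7.73 ± 0.213. The samples of clusters 4 and 0 overlap, as do those of 0 and 6 and those of 6 and 3, whereas every cluster 0 sample lies above every cluster 3 sample, and every sample of cluster 1, from 7.44 to 7.94, lies below every sample of those 4 clusters. The mean of cluster 6 joins genotypes that differ: its CCR2+/- samples, at 11.0 and 10.7, lay below those of cluster 3, at 14.3 and 11.0, and its CCR2-/- samples, at 28.8 and 23.8, above those of cluster 3, at 21.8 and 17.3. Clusters 2, 5, 7 and 8 have fewer than 20 cells in each sample, so their summed levels carry counting error only. H2-K1 was at 14.9 in the 30 B-like cells of cluster 5 (95% Poisson interval 13.2 to 16.8), at 4.87 in the 36 neutrophil-like cells of cluster 2 (4.07 to 5.77; the mean of samples is 4.71, and 8.98 with all deposited cells), at 0.668 in the 47 smooth-muscle-like cells (0.436 to 0.979) and at 0.361 in the 29 choroid-plexus-like cells (0.165 to 0.686). These are levels of genes in the cells that were clustered and are a description.

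The other members did not all follow H2-K1. H2-D1, the second classical heavy chain, had mean levels of 30.3 in cluster 4, 24.2 in cluster 3, 22.7 in cluster 0, 21.8 in cluster 6 and 10.4 in microglia-like cells. B2m was 25.3 in cluster 3, 24.5 in cluster 4, 21.9 in cluster 6 and 18.5 in microglia-like cells, and it was 9.62 in cluster 0, where H2-K1 was near its highest. H2-Q7, a Qa-2 molecule, was 9.27 in lymphocyte cluster 4 against 2.91 in cluster 6, 2.45 in cluster 0, 2.16 in cluster 3 and 0.786 in cluster 1. In the CCR2+/- samples alone H2-Q7 was at 1.06 and 0.696 in cluster 6, below cluster 0 at 2.31 and 1.96. H2-T23, which encodes Qa-1, the ligand of the NK receptor CD94/NKG2A, was highest in endothelial-like cells at 5.97, then 4.64 in cluster 3, 3.44 in cluster 4, 2.28 in cluster 0 and 2.03 in cluster 1. In the smooth-muscle-like cells H2-Q4, H2-Q6, H2-T23, Tap1 and Nlrc5 had 0 counts, which allows a level of up to 0.0771 each. H2-Q4, H2-Q7, Tap1 and Nlrc5 had 0 counts in the choroid-plexus-like cells, which allows up to 0.120.

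**Figure D1:**
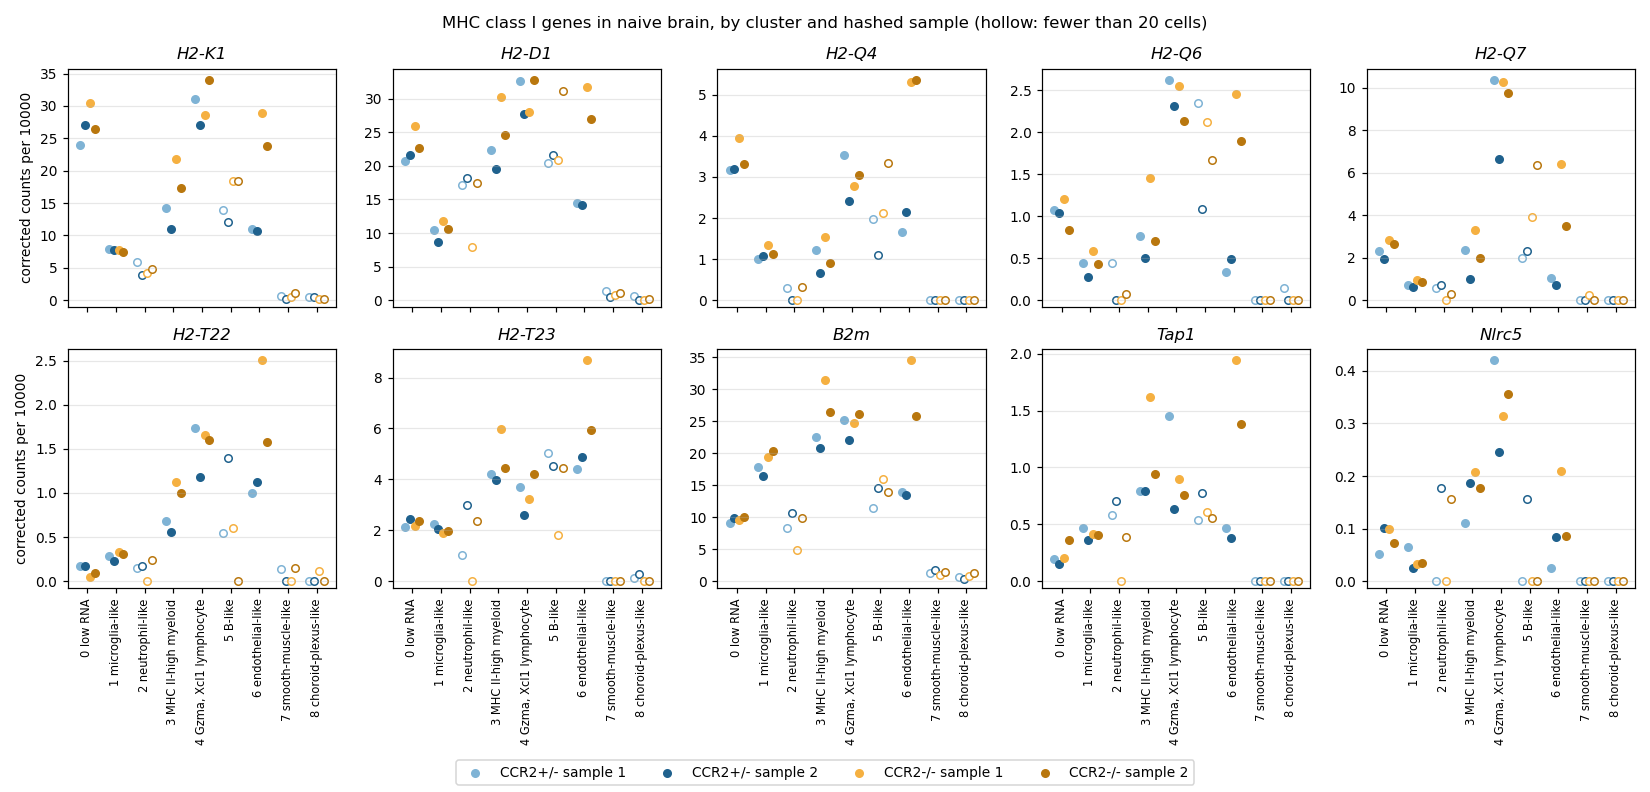
Each panel plots 1 member's level (corrected counts per 10000, linear axis) in the 9 brain clusters, with 1 point per hashed sample, blue for CCR2+/- and orange for CCR2-/-; hollow points rest on fewer than 20 cells. In endothelial-like cluster 6 the orange points stand above the blue ones in every panel, and in clusters 7 and 8 all members lie near 0.

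The first comparison asks how class I differs between brains with 1 and with no functional Ccr2 allele, the receptor by which monocytes leave the bone marrow. In endothelial-like cluster 6, all 9 members that could be tested were higher in CCR2-/- brain, and 5 of them passed the test: H2-K1, H2-Q4, H2-Q6, H2-Q7 and Tap1. Of all 9485 genes tested in that cluster 0.105% were called higher, 0.0316% lower and 0.137% in either direction. H2-K1 was at 11.0 and 10.7 corrected counts per 10000 in the CCR2+/- samples and at 28.8 and 23.8 in the CCR2-/- samples. The lowest CCR2-/- sample was thus above the highest CCR2+/- sample, with a fitted log2 difference of 1.27 (SE 0.18) and a limma adjusted p of 0.0358, or 2.41-fold. H2-D1 was at 14.5 and 14.2 against 31.7 and 26.9, a log2 difference of 1.03 (SE 0.17) that did not pass (limma adjusted p = 0.0673). B2m, the light chain of both, was at 13.9 and 13.5 against 34.5 and 25.8, a log2 difference of 1.12 (SE 0.19, limma adjusted p = 0.0673). Their 3 patterns are alike in that the CCR2+/- samples nearly coincide and CCR2-/- sample 1 is the highest.

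Of the members, H2-Q7 and H2-Q6 had the largest estimates. H2-Q7 was at 1.06 and 0.696 in the CCR2+/- samples and at 6.40 and 3.49 in the CCR2-/- samples, a log2 difference of 2.43 (SE 0.31, limma adjusted p = 0.0272). Its near-identical neighbour H2-Q6 was at 0.342 and 0.485 against 2.45 and 1.90, a log2 difference of 2.35 (SE 0.27, limma adjusted p = 0.0161). H2-Q4, whose printed window holds the NF-kB form in place of the palindrome, was at 1.66 and 2.15 against 5.31 and 5.37, a log2 difference of 1.49 (SE 0.20, limma adjusted p = 0.0342). The T-region chains had the smallest estimates and did not pass. H2-T22, a ligand of some gamma delta T cell receptors, was at 0.999 and 1.12 against 2.50 and 1.58, and H2-T23 at 4.39 and 4.87 against 8.67 and 5.94, with log2 differences of 0.90 (SE 0.26) and 0.63 (SE 0.21).

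Tap1 was at 0.468 and 0.380 in the CCR2+/- samples and at 1.94 and 1.38 in the CCR2-/- samples, a log2 difference of 1.91 (SE 0.27, limma adjusted p = 0.0358). Nlrc5 had 19 corrected counts in the whole cluster, below the 20 needed for a test, and its levels were 0.0253 and 0.0844 against 0.210 and 0.0852. For 9 of 9 tested members both CCR2-/- samples lay above both CCR2+/- samples, as they did for 13.4% of all genes. With 2 samples against 2, an exact permutation test of a single gene cannot give a p below 0.333, so the calls rest on the spread that limma shares across genes. They also rest on the samples and cells. The calls were lost when either CCR2-/- sample was left out and were more when either CCR2+/- sample was, in fits with 1 sample in a genotype. With cells thinned to 1000 corrected counts or without the 5% deepest cells 1 member passed, and with an own hashtag share of at least 0.8 none did. The sign was positive in 108 of 108 refits of single members. Because the samples of these members did not overlap, leaving 1 out could hardly change the sign. The refits also share the same 4 samples, so this count adds no support to the calls.

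**Figure D2:**
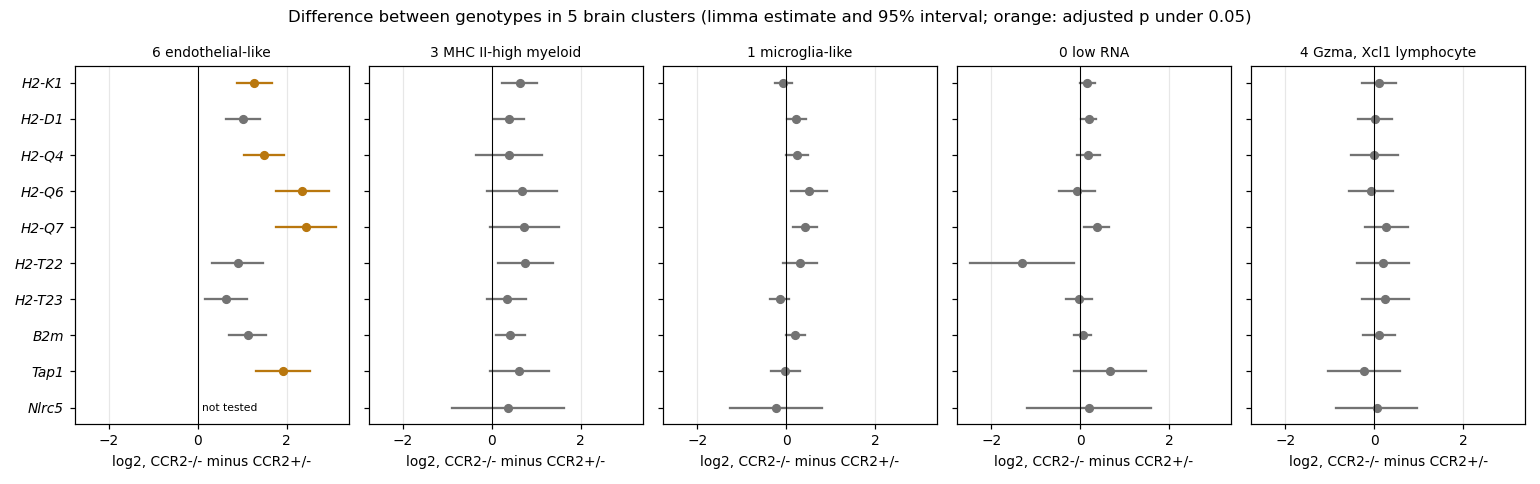
Each panel plots, for 1 brain cluster, the limma estimate of the log2 difference (CCR2-/- minus CCR2+/-) of each member with its 95% interval; orange marks an adjusted p under 0.05. In cluster 6 the estimates run from 0.63 for H2-T23 to 2.43 for H2-Q7, and in the other 4 clusters no member is orange.

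Most CCR2-/- cells of cluster 6 lay above the median of its CCR2+/- cells. The summed level of the 7 H2 genes and B2m in single cells had medians of 45.2 and 48.4 per 10000 in the CCR2+/- samples (111 and 64 cells) and 136 and 86.6 in the CCR2-/- samples (61 and 65 cells). Of the cells of CCR2-/- sample 2, 58 of 65 (89.2%) lay above 45.4, the median over the CCR2+/- cells, and of CCR2-/- sample 1, 48 of 61 (78.7%), against 53 of 111 (47.7%) and 34 of 64 (53.1%) in the CCR2+/- samples. Sample 1 of the CCR2-/- brains had the wider range, with its lowest 10% of cells under 14.6 and its highest 10% above 221. The same bounds in sample 2 were 45.1 and 163. In the CCR2+/- samples the lower bound was 13.6 and 9.57, so the lowest cells of CCR2-/- sample 1 were near those of CCR2+/- sample 1. The median depth of the cells was 8903 and 8252 UMIs in the CCR2+/- samples and 8701 and 9939 in the CCR2-/- samples.

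**Figure D3:**
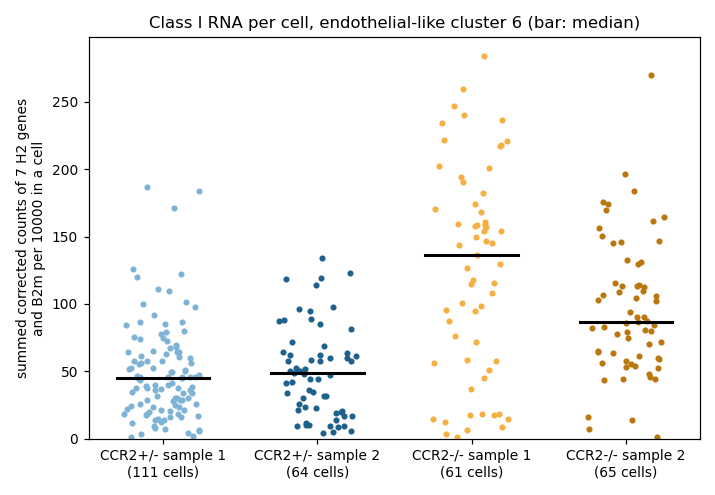
Each point is 1 cell of endothelial-like cluster 6, plotted by its summed corrected counts of 7 H2 genes and B2m per 10000 (vertical axis) in each of the 4 hashed samples; sideways spread is for legibility and the bar is the median. The medians are 45.2 and 48.4 in the CCR2+/- samples and 136 and 86.6 in the CCR2-/- samples, and low cells remain in every sample.

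Cluster 6 is not uniform, so the members were read within subsets set after its markers had been seen. Cells with at least 3 endothelial markers, more than their mural and fibroblast markers, numbered 70, 39, 44 and 53 in the order CCR2+/- sample 1, CCR2+/- sample 2, CCR2-/- sample 1 and CCR2-/- sample 2, and their H2-K1 levels were 14.5, 15.4, 36.7 and 26.7, a ratio of 2.09. The other cells of the cluster (41, 25, 17 and 12) had much lower H2-K1, at 4.75, 3.91, 9.33 and 9.51, with a ratio of 2.19. These low cells made up a smaller share of the CCR2-/- samples. The medians and shares over all cells of the cluster thus mix make-up with level, and the part of each was not tested. Among endothelial cells, those with Plvap and not both barrier markers had higher H2-K1 (17.2 to 42.4) than those with the barrier markers Cldn5 and Slco1a4 (10.0 to 24.7), in each of the 4 samples. The CCR2-/- to CCR2+/- ratio of H2-K1 was 1.97 and 2.07 in these subsets, and that of H2-Q7 was 4.34 and 4.28. In the same sample order the Plvap subset held 31, 30, 30 and 30 cells and the barrier subset 37, 9, 10 and 20. Some barrier values thus rest on fewer cells than the 20 required for a test. By antibody, the CD45-low CD11b-negative cells of the cluster gave 11.3, 9.71, 30.9 and 23.8, a ratio of 2.59. H2-T22 and H2-T23 were an exception outside the endothelial cells, where their ratios were 0.685 and 0.813. No test was run in these subsets.

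The make-up of cluster 6 also differed between samples. In the same sample order, the summed level of 8 endothelial markers was 101, 86.3, 102 and 130, with 2 of 8 genes higher in both CCR2-/- samples. For the counts of marker genes in this paragraph, the shares of all genes in the cluster were 13.4% higher and 24% lower in both CCR2-/- samples. Oligodendrocyte precursor markers, 3 of 3 genes lower, were at 0.670, 0.612, 0.280 and 0.149, and heat shock genes at 16.6, 16.5, 20.5 and 25.3. Neuron markers were at 2.15, 0.760, 0.117 and 0.192, most of it Meg3, at 2.14, 0.738, 0.117 and 0.170. Plasmacytoid dendritic cell markers were at 2.52, 2.91, 6.78 and 5.83, most of it Bst2, at 2.16, 2.60, 6.40 and 5.45. Meg3 and Bst2 are among the genes called in this cluster, so the neuron and plasmacytoid sums say little about cell make-up. Smooth muscle markers were at 10.2, 2.11, 1.87 and 1.02, with 2 of 3 genes lower in both, and fibroblast markers at 9.80, 38.0, 14.5 and 4.88. Choroid plexus markers, 3 of 4 of them higher in both CCR2-/- samples, were at 5.96, 4.35, 7.99 and 32.0, red cell markers at 42.3, 0.570, 0.795 and 0.830, and neutrophil markers, 4 of 7 higher in both, at 6.81, 4.58, 9.77 and 7.39. Their part in the class I difference was not tested; within the subsets the ratio of H2-K1 was 1.97 to 2.59. T cell markers summed to 0.0759, 0.0844, 0.0935 and 0.128 over 6 genes, with Cd3e and Cd3g at 0. NK markers summed to 0.114, 0.0211, 0.0467 and 0.0426 over 6 genes, with Prf1 and Eomes at 0.

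In the rest of the class I pathway no gene passed the test, and most estimates were above 0. Of 22 listed genes 19 were tested, 15 were above 0 and 4 below, and their median log2 difference was 0.52 against -0.11 over all genes. By level the leading genes were Calr, a chaperone that folds heavy chains, at 2.92, 3.19, 4.32 and 4.47, Psme1, a proteasome activator, at 2.76, 3.04, 5.12 and 3.79, and Pdia3, a disulfide isomerase of the loading complex, at 3.18, 3.21, 4.23 and 3.64. The immunoproteasome subunit Psmb8 had the values 1.68, 2.30, 6.10 and 3.26, a log2 difference of 1.17 (SE 0.29, limma adjusted p = 0.293). Of 20 regulators 17 were tested, 12 were above 0 and 5 below, with a median of 0.36 and no call. The receptor gene Ifngr1 was at 1.34, 1.94, 1.61 and 1.55, and the interferons Ifng and Ifnb1 had 0 counts in all 4 samples of the cluster.

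Genes induced by interferon gamma had a higher median than the class I genes. Of 10 listed, 8 were tested, all 8 were above 0, and 3 passed, the guanylate-binding proteins Gbp4 and Gbp5 and the related GTPase Igtp. Gbp4 was at 0.354, 0.338, 2.43 and 1.87, a log2 difference of 2.56 (SE 0.25, limma adjusted p = 0.0124), and the list's median was 1.72, against 1.27 for the 9 members. Of 12 genes associated with type I interferon 11 were tested, 9 were above 0 and 2 below, the median was 0.57, and Bst2 alone passed, at 2.16, 2.60, 6.40 and 5.45. Ifi27l2a went the other way, at 0.848, 1.73, 0.444 and 0.681. The 6 MHC class II genes were all above 0 with a median of 1.34, and for 3 of 6 (H2-Aa, H2-Ab1 and H2-DMa) both CCR2-/- samples were above both others, but 1 sample stood out: their summed level was 5.06 and 2.83 in the CCR2+/- samples, 20.3 in CCR2-/- sample 1 and 4.94 in CCR2-/- sample 2. Altogether 13 genes passed in the cluster, 10 higher (the 5 members, Gbp4, Gbp5, Gbp7, Igtp and Bst2) and 3 lower (Ctgf, Tmem86a and Meg3).

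**Figure D4:**
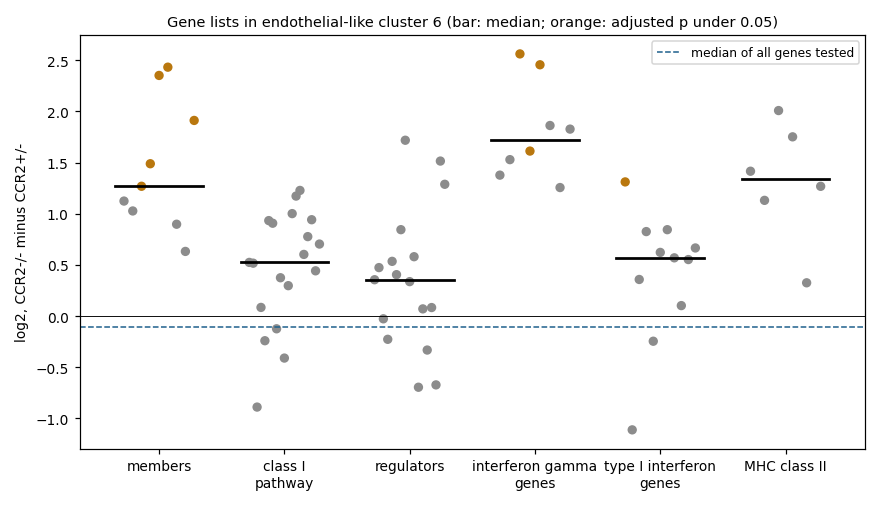
Each point is 1 tested gene of a list in endothelial-like cluster 6, plotted by its log2 difference (CCR2-/- minus CCR2+/-); the bar is the list's median, orange marks an adjusted p under 0.05, and the dashed line is the median of all genes tested, -0.11. The 9 members have a median of 1.27 and the interferon gamma genes 1.72, and 5 and 3 of them are orange.

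In the other 4 brain clusters no member passed. Cluster 3, the MHC class II-high myeloid cells, came nearest, with 10 of 10 members above 0, a median log2 difference of 0.52 and 6 whose CCR2-/- samples lay above both others, against 24.1% of all genes, and none below, against 13.7%. H2-K1 was at 14.3 and 11.0 there in the CCR2+/- samples and at 21.8 and 17.3 in the CCR2-/- samples, a log2 difference of 0.62 (SE 0.18, limma adjusted p = 0.296). Of all genes 0.158% were called in that cluster, 0.129% higher and 0.0287% lower. An unadjusted limma p under 0.05 was found for 4 of 10 members, against 577 of all 6974 genes. Without CCR2-/- sample 2, 3 members passed, in a refit that called 3.93% of all genes. The make-up of the cluster moved as well: Ly6c-low monocyte markers summed to 6.72 and 4.09 in the CCR2+/- samples and to 16.4 and 14.1 in the CCR2-/- samples, with 7 of 7 genes higher without overlap. Border macrophage markers summed to 26.1 and 15.7 against 10.7 and 14.1, with 4 of 6 genes lower, and 7 of 10 immediate early genes were lower, and the part of these in the result was not tested. The MHC class II genes of the same cells leaned the other way, 6 of 6 below 0 with a median of -0.32.

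In microglia-like cluster 1, where 0.485% of genes were called, H2-K1 was at 7.94 and 7.82 in the CCR2+/- samples and at 7.70 and 7.44 in the CCR2-/- samples, a log2 difference of -0.06 with a 95% interval of -0.25 to 0.13. H2-Q7 was at 0.739 and 0.606 against 0.937 and 0.862, a log2 difference of 0.42 (SE 0.13, limma adjusted p = 0.202). The members' median was 0.22, with 6 above 0, and 4 of 10 had an unadjusted limma p under 0.05, against 951 of all 10713 genes. For 5 members both CCR2-/- samples lay above both CCR2+/- samples, against 14.5% of all genes, and for 2 below, against 23.5%. The pathway gene Calr did pass in microglia-like cells, at 4.15 and 5.11 against 6.36 and 7.25, a log2 difference of 0.56 (SE 0.11, limma adjusted p = 0.0109), as did Gbp5, at 0.310 and 0.447 against 0.647 and 0.620. In the low-RNA cluster 0, where 0.101% of genes were called, the median of the members was 0.17 with 7 above 0, and H2-K1 was at 23.9 and 27.0 against 30.5 and 26.4. There 3 of 10 members had an unadjusted limma p under 0.05, against 545 of all 9889 genes. In lymphocyte cluster 4, where 0.0141% of genes were called, H2-K1 was at 31.0 and 27.1 against 28.5 and 34.1, and the samples of all 10 members overlapped (of all genes 18% were higher and 14% lower without overlap). No member had an unadjusted limma p under 0.05 there, against 263 of all 7115 genes.

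Whether endothelial-like cells differ from microglia-like cells in this effect was tested directly, on the difference of log2 values within each sample. None of the 9 members and 0% of the 8259 genes passed in limma, although 540 genes had an unadjusted p under 0.05. For H2-K1 the log2 effect was larger in cluster 6 by 1.33 (95% interval 0.92 to 1.74, limma adjusted p = 0.177) and for H2-Q7 by 2.01 (95% interval 1.36 to 2.66, limma adjusted p = 0.177). For H2-T22 it was larger by 0.58 with an interval that includes 0, from -0.15 to 1.31. Set against the other clusters, the effect on H2-K1 in cluster 6 was larger by 1.11 than in cluster 0, by 0.64 than in cluster 3 and by 1.16 than in cluster 4, with limma adjusted p values of 0.0562, 0.611 and 0.33. With all deposited cells 1 member and 0.034% of genes passed against cluster 1. With cells thinned to 1000 corrected counts 0 members and 0% of genes did.

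In blood each group is 1 hashed sample, so there is no test. Levels are given with 95% intervals that cover counting error only, and a ratio of at least 1.5 is counted as a difference of these samples. In naive neutrophils (795 Het and 377 Hom cells) all 10 members were higher in Hom, 5 of them by at least 1.5-fold: H2-K1, H2-Q4, H2-Q6, H2-Q7 and Nlrc5. As many as 21.8% of all genes were that much higher in this sample, with a median log2 ratio of 0.24 over all genes and 0.78 over the members, and 7.81% were lower. H2-K1 went from 7.63 in Het to 15.2 in Hom, a log2 ratio of 1.00 (0.92 to 1.08), H2-Q7 from 0.336 to 1.01, a log2 ratio of 1.59 (1.24 to 1.95), and B2m from 18.8 to 27.8, a log2 ratio of 0.56 (0.51 to 0.62). H2-D1, at 46.1 in Hom, had a log2 ratio of 0.48, and H2-T23 and Tap1 moved least, at 0.09 and 0.18. The interferon gamma genes lay elsewhere, with 3 above 0, 3 below and a median of -0.00460, and the 11 tested type I interferon genes had a median of 0.12. In the same cluster neutrophil markers summed to 2460 in Het and 1829 in Hom, B cell markers to 2.74 and 4.09, Ly6c-low monocyte markers to 0.555 and 1.05 and MHC class II genes to 8.26 and 10.7, and their part in the result was not tested. Gating cells by the Ly6C and Ly6G antibodies (729 and 361 cells) gave 1.02 for H2-K1 and 1.53 for H2-Q7.

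Naive monocytes (175 Het and 182 Hom cells) had 4 members at least 1.5-fold higher in Hom, against 5.32% of genes, and 1 lower, Nlrc5, against 10.7%. H2-Q7 went from 0.795 to 2.29, a log2 ratio of 1.51 (1.13 to 1.94), and H2-Q6, H2-T22 and H2-Q4 had log2 ratios of 1.03, 0.89 and 0.62. H2-K1, at 14.1 and 18.9, had 0.42 (0.32 to 0.53), H2-D1 0.20 and B2m 0.08. With cells thinned to 1000 corrected counts 2 members were at least 1.5-fold higher. Other genes moved in the same cells, whose part in the result was not tested: MHC class II genes summed to 46.0 in Het and 105 in Hom, neutrophil markers to 62.8 and 12.2, red cell markers to 0.661 and 39.7, and type 2 dendritic cell markers to 1.25 and 4.61. In cells gated by antibody, H2-K1 was at 10.1 and 15.5 in Ly6C-high monocytes (72 and 101 cells) and at 20.7 and 25.8 in Ly6C-low monocytes (25 and 39 cells), so the Ly6C-low cells had the higher H2-K1 level in both samples. H2-Q7 had log2 ratios of 1.83 and 1.58 in these gates.

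Naive B cells (436 and 807 cells) had all 10 members higher in Hom with a median log2 ratio of 0.35, but none by 1.5-fold, against 4.49% of genes higher and 4.26% lower. H2-K1 was at 15.4 and 18.9 there, and H2-Q7, with the largest ratio, at 2.31 and 3.46. In the naive T and NK cluster (143 and 336 cells) the median was 0.11 and no member reached 1.5-fold, against 7.69% of genes higher and 6.71% lower, with H2-K1 at 19.1 and 22.7. NK markers summed to 18.03 in Het and 41.7 in Hom in that cluster. In the naive low-RNA cluster 4 (125 and 238 cells), led by Apod, Igfbp5 and Ttr, H2-K1 was at 21.5 and 23.5. There 1 member was at least 1.5-fold higher in Hom, against 15.9% of genes, and 2 were lower, against 19.4%.

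In metastasis-bearing blood the same comparison gave almost equal levels. Neutrophils (800 and 808 cells) had H2-K1 at 6.75 in Het and 6.78 in Hom, a log2 ratio of 0.01 (-0.08 to 0.09), H2-Q7 at 0.243 and 0.237, and B2m at 16.4 and 16.7, and no member reached 1.5-fold, against 6.81% of genes higher and 6.99% lower. The type I interferon genes of these neutrophils were nonetheless all higher in Hom, 10 of 10 tested with a median of 0.85. Monocytes (322 and 482 cells) had H2-K1 at 8.84 and 8.98, with no member 1.5-fold higher against 2.81% of genes. Lower by that ratio were H2-Q6, with 13 and 9 counts, and Nlrc5, with 25 and 25 counts, against 11.1% of genes. B cells had a median log2 ratio of 0.04 and no member past 1.5-fold, against 6.69% of genes higher and 5.13% lower. In T cells H2-Q6 was 1.5-fold lower, at 1.58 and 0.975, against 7.09% of genes, and none was higher, against 8.18%, and in the 35 and 24 NK cells H2-Q6 and Tap1 were lower, against 14.9%, while H2-K1 was at 30.7 and 29.8.

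**Figure D5:**
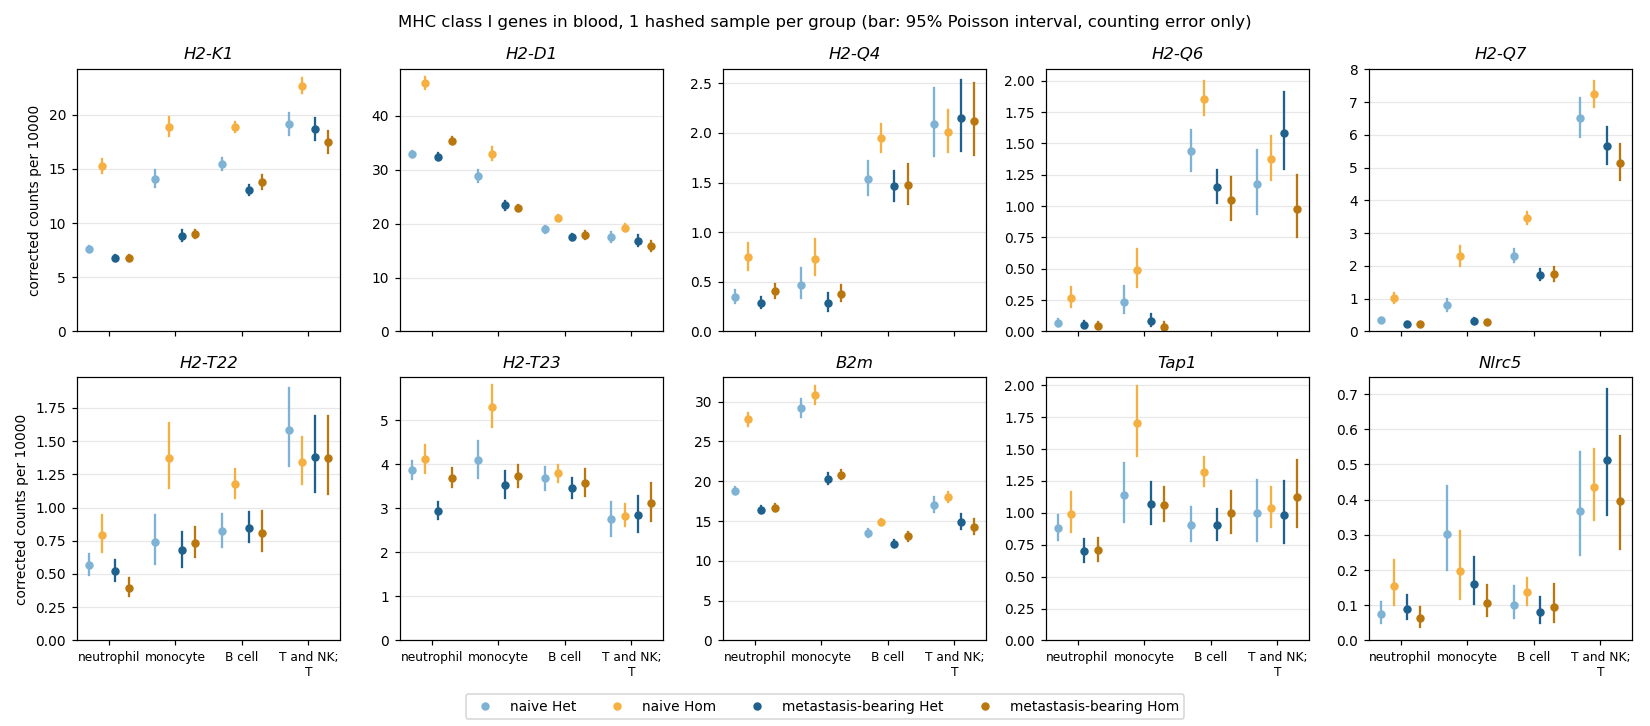
Each panel plots 1 member's level (corrected counts per 10000, linear axis from 0) in 4 blood cell types for the 4 hashed samples, with 95% Poisson intervals that cover counting error only; the last cell type is the T and NK cluster in naive blood and the T cell cluster in metastasis-bearing blood. The naive Hom sample (light orange) stands apart in neutrophils, with H2-K1 at 15.2 against 6.75 to 7.63 in the other 3.

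Set side by side across the blood tables, which the authors normalised separately, metastasis-bearing samples had lower class I levels in monocytes and Hom neutrophils. In Hom monocytes all 10 members were lower and 7 by at least 1.5-fold, against 21.3% of genes: H2-K1 went from 18.9 in naive to 8.98, a log2 ratio of -1.07 (-1.16 to -0.98), H2-Q7 from 2.29 to 0.277, a log2 ratio of -3.04 (-3.48 to -2.64), and Tap1 from 1.70 to 1.06. In Het monocytes all 10 were lower and 5 by that ratio, against 20.5% of genes, with H2-K1 at 14.1 and 8.84, but with all deposited cells the count was 0. In Hom neutrophils 7 of 10 were at least 1.5-fold lower, against 12.9% of genes, with H2-K1 at 15.2 and 6.78 and B2m at 27.8 and 16.7. Het neutrophils had none, against 7.25%, with H2-K1 at 7.63 and 6.75. In the monocyte clusters Ly6c-high markers summed to 92.4 in naive and 206 in metastasis-bearing Het and to 106 and 191 in Hom, Ly6c-low markers to 15.5 and 9.23 and to 12.2 and 7.84, and MHC class II genes to 46.0 and 59.3 and to 105 and 49.8. The part of monocyte subsets in the result was not tested. The naive Hom sample takes part in both Hom comparisons and in those of naive Hom with naive Het, so they are not independent. In Hom B cells H2-Q6 and H2-Q7 were at least 1.5-fold lower, against 5.65% of genes, and in Het B cells no member was, against 5.91%. In T and NK cells H2-Q6 was higher in the Het pair, at 1.17 and 2.02, against 11% of genes, and no member of the Hom pair was higher or lower by that ratio, against 9.66% and 6.03%.

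Type I interferon genes were lower in most of the same myeloid comparisons. Of 12 type I interferon genes, 12 were below 0 in Het monocytes (median -0.68) and 12 in Hom monocytes (median -0.88), and 11 of 11 tested were at least 1.5-fold lower in Het neutrophils, whose class I members moved little (median -0.23). In Hom neutrophils, where 7 members were lower, 8 of 11 were below 0 and 5 at least 1.5-fold lower (median -0.47), and their summed level was 41.03 in naive and 34.8 in metastasis-bearing blood. The 845 barcodes that stand in both tables give a measure of the scale: the same cells had member levels that differed by -0.02 to 0.14 on the log2 scale between tables, with H2-K1 at 12.9 and 13.3. With 1 sample per group, tumour and sample cannot be told apart.

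The genes whose pattern was most like that of the classical heavy chains were sought by the mean, over the 3 tables, of the Pearson correlation of their log2 level with the mean log2 level of H2-K1 and H2-D1 across clusters and samples (20, 12 and 13 points), among 2027 genes with enough counts. The first 4 were Itga4 (mean r = 0.654), H2-Q6 (0.629), Ppp1r12a (0.607) and H2-Q7 (0.592). These means join unlike values. In brain, naive blood and metastasis-bearing blood r was 0.873, 0.209 and 0.805 for H2-Q6 and 0.874, 0.136 and 0.768 for H2-Q7. For Itga4 it was 0.552, 0.772 and 0.638, and for H2-T23 0.404, 0.372 and -0.399. H2-Q4 was at 0.554, Tap1 was at 0.367, and H2-T23 and B2m were at 0.126 and 0.0585, ranks 979 and 1259. The points share a library, cells and depth, so the values describe this data set alone.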

How the data were processed

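All 8 hashed samples came from 1 CITE-seq library. Per the submitters' processing notes, reads were processed with Cell Ranger 3.1 on mm10. The deposited tables hold natural log values, ln(1 + corrected count), that the authors made per table with SCTransform, as their column names and totals show: after exponentiation they were whole to within 2.18e-11, and every cell's total equalled its deposited total. Correction shifts cells towards a common depth, so counting intervals may be too narrow. Raw counts per gene were not analysed here, so no count test was run, and limma 3.58.1 was the main test (R 4.3.3; numpy 2.4.6, scipy 1.17.1, pandas 2.3.3, matplotlib 3.10.9).

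Corrected counts were summed per hashed sample and the authors' cluster, for clusters with at least 20 cells in each sample. Genes with at least 20 corrected counts entered lmFit and eBayes with trend on log2 values with a pseudocount of 1 count; p-values were Benjamini-Hochberg adjusted over all genes of a cluster, with a threshold of 0.05. The method was also run on simulated data with a fixed spread between samples. Its outcome is not reported here and adds no support to the calls. Blood, with 1 sample per group, has log2 ratios with Poisson-based 95% intervals and a 1.5-fold rule. Samples were grouped by the tables' hashtag labels.

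All 10 members are named, with other genes of fixed lists where they passed or, up to 4, by level; Ifi27l2a and the whole set called in cluster 6 were named after their values were seen. Some genes that the rule would name are not reported here. The members and lists were chosen with earlier results of these data known. Promoters are RefSeq windows on GRCm38.p6. Alternatives covered cells, depth, scaling, pseudocount, filter, weights and replicates.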

Additional observations from a re-analysis of the deposited data

How the results depend on the processing

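In all, 1530 alternatives were computed for 257 results. A reversal could be scored only for single members called in brain or past 1.5-fold in blood, and none of those reversed. Most alternatives could therefore not count as a reversal. In cluster 3, where no member was called, the sign held in 109 of 111 alternatives of single members. No paired analysis was possible because the brain samples carry hashtags 1 and 2 (CCR2+/-) and 3 and 4 (CCR2-/-), with no number common to both genotypes; the sample numbers used here only name hashtags in order. In cluster 6 the count of members called, 5, became 0 with an own hashtag share of at least 0.8 (chosen after seeing the data), 1 with cells thinned to 1000 corrected counts, 1 without the 5% deepest cells, and 0 to 8 when 1 sample was left out. The count of all genes, 13, became 0, 2 and 3 in the first 3 of these settings and 0 to 221 when 1 sample was left out. The log2 difference of H2-K1 there ran from 1.10 to 1.41 and its limma adjusted p from 5.74e-07 to 0.826. With 1 sample left out, the lone sample of a genotype is assumed to vary like the other pair; cluster 1 then had 0 to 1 members called and cluster 3 had 0 to 3. The difference between clusters 6 and 1 had 1 member past the threshold with all deposited cells and 0 to 5 with a sample left out. Clusters 0, 3 and 4 as the reference were added after seeing the data.

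In blood, thinning changed the most counts of members past 1.5-fold. For Hom over Het it gave 3 higher in naive B cells, 2 in naive T and NK cells, 2 in naive monocytes (none lower, that is 0), 2 higher and 1 lower in metastasis-bearing neutrophils, 1 and 1 in metastasis-bearing B cells, 1 and 1 in metastasis-bearing monocytes, and 2 lower in metastasis-bearing T cells. For metastasis-bearing over naive it gave 2 lower in Het neutrophils, 1 higher and 2 lower in Het B cells, and 2 lower in Hom T and NK cells. With all deposited cells, 1 member was higher in naive B cells, 0 were lower in naive monocytes, 0 in metastasis-bearing T cells, 1 in Het neutrophils and 0 in Het monocytes, and 0 were higher in Het T and NK cells. Without the 5% deepest cells 0 were lower in naive monocytes and 1 in metastasis-bearing monocytes, a pseudocount of 5 gave 0 lower in naive monocytes, and the mean over cells gave 1 higher in naive B cells. The mean H2-K1 level with all deposited cells was 8.98 in brain cluster 2 and 26.5 in cluster 4, against 4.71 and 30.2. The cause of these changes was not tested. Low counts limit H2-Q6 and Nlrc5 in most clusters.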

Other observations

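Platelets of naive blood, which carry class I at their surface, had a summed level of the 7 H2 genes and B2m of 89.3 per 10000 in Het (29 cells) and 119 in Hom (22 cells), and in metastasis-bearing blood 81.0 (39 cells) and 79.1 (11 cells). The blood tables held 7 microglia-like cells in each of the 4 samples. Their summed level was 44.2 and 46.4 in naive blood and 38.8 and 40.6 in metastasis-bearing blood. The microglia-like cells of the brain table had 37.1 to 43.9. Brain and blood were sequenced in 1 library, and which tissue the microglia-like cells of the blood tables came from was not tested. In naive T and NK cells 7 of 8 tested genes for receptors that read class I were higher in Hom, 5 by at least 1.5-fold against 7.69% of all genes (6.71% lower), with a median log2 ratio of 0.73, beside NK markers that summed to 18.03 in Het and 41.7 in Hom.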
